A study of Mus musculus with 9 samples.

Results

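Glycolysis enzymes turn glucose into pyruvate, and lactate dehydrogenase passes the pyruvate on to lactate. The 10 enzyme genes followed here cover most steps of this route and were chosen by name as the rows of the deposited table for Hk1, Hk2, Gpi1, Pfkl, Aldoa, Gapdh, Pgk1, Eno1, Pkm and Ldha, 10 of the 54146 genes listed. RNA was sequenced from the colonic mucosa of 9 C57BL/6J mice at 15 wk of age, 5 ApcMin/+ mice (2 females, 3 males) and 4 ApcMin/+; p16cis/cis mice (3 females, 1 male), named p16cis/cis mice for short. Every mouse carried the ApcMin allele, a germline Apc mutation that starts intestinal adenomas and is present in all tissues, and the p16cis/cis mice in addition carried, on both alleles and in every cell, an inserted element that draws DNA methylation to the p16 promoter. The methods name colonic crypts as the source of the RNA, and there were no mice with wild-type Apc.

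In the colon, mature surface cells take much of their energy from butyrate burned in mitochondria, whereas dividing crypt cells and tumors lean more on glycolysis. The route opens with hexokinases (Hk1, Hk2), which trap glucose as glucose 6-phosphate, and with the isomerase Gpi1. It commits at phosphofructokinase (Pfkl) and splits the sugar at aldolase (Aldoa). Gapdh, Pgk1, Eno1 and Pkm then carry the yield of NADH and ATP. Ldha regenerates NAD+ by making lactate. Many of these genes are known targets of the hypoxia-inducible factors (HIF) and of Myc. Gapdh is also widely used as a reference gene.

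Values are normalized counts, in which the reads of a gene are scaled by 1 size factor per mouse, and 13523500 to 17885918 reads per mouse lay on genes. Cdkn2a, which encodes p16, was listed at 0 in all 9 mice, so its level gives no check of the labels. Colonocyte markers (Car1, Slc26a3, Krt20, Epcam, Vil1 and others, 11 genes) summed to 282565 to 462169 in ApcMin/+ mice and 243470 to 296652 in ApcMin/+; p16cis/cis mice, against at most 2459.7 for 15 leukocyte markers and 845 for 13 stroma and muscle markers. None of these markers was at 0 in every mouse. The mitochondrially encoded genes took 8.74% to 15.6% of the reads in ApcMin/+ mice and 19.3% to 29.8% in ApcMin/+; p16cis/cis mice, with no overlap (p = 0.00794 by a two-sided exact permutation test, which with 5 mice against 4 can go no lower). Stroma and muscle markers summed to 272 to 845 and 189.6 to 388, leukocyte markers to 1169 to 2459.7 and 862 to 2195, and 7 crypt base and cycling markers to 5219 to 8243 and 7877 to 10782, in ApcMin/+ and p16cis/cis mice respectively. Called were 1 gene each among the stroma, leukocyte and colonocyte markers, all lower, and 1, higher, among the crypt markers. These were 10%, 9.09%, 9.09% and 16.7% of the tested genes of each list, beside 16.9% of all genes tested. Without ApcMin/+ mouse 4, 6 of 11 tested leukocyte markers and 6 of 10 tested stroma markers were called lower, and DESeq2 on the recovered reads called 3 leukocyte, 3 stroma and 4 colonocyte markers lower. Without any 1 of ApcMin/+ mice 1, 2, 3 and 5 or p16cis/cis mice 1 and 4, limma called 0 stroma markers. The macrophage marker Adgre1 and the endothelial marker Cdh5 were at 0 in all 4 p16cis/cis mice. These 2 were picked from the lists, and a value of 0 does not show that a cell type was absent. Of the 11 tested leukocyte markers 8 had a log2 fold change below 0, and the others reached 0.57. All 10 tested stroma markers lay below 0. The part of these differences in the results on glycolysis was not tested. In bulk tissue, fewer cells of a type and less RNA per cell cannot be told apart.

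Of the 10 glycolysis enzymes, 1 was called between the genotypes. Gapdh fell, from 991 ± 276 (SD, n = 5) to 506 ± 87.8 (SD, n = 4) (log2 fold change -0.93, SE 0.21, limma adjusted p = 0.0124). The other 9 were not called, and their log2 fold changes ran from -0.40 for Pgk1 to 0.09 for Gpi1. The genotypes were compared with limma on log2(normalized count + 1). Tested were 14410 genes, those reaching 10 in 4 or more mice, and a gene was called at a Benjamini-Hochberg adjusted p under 0.05. By this rule 16.9% of all genes tested were called, 8.75% lower in ApcMin/+; p16cis/cis mice and 8.14% higher, so 1 of 10 is no larger a share than among all genes. No enzyme of the 10 was called with a fold change over 2, against 3.48% of all genes. The median log2 fold change of the 10 was -0.21, beside -0.0041 over all genes tested, and 8 of 10 lay below 0, beside 50.4% of all genes. Most of the 10 varied together from mouse to mouse, so these are not 10 independent signs. Among the 5 females the median was -0.032 and 5 of 10 lay below 0. With the mitochondrial share as a covariate the median was -0.066 and 6 of 10 lay below 0. All 10 passed the filter on low values.

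**Figure D1:**
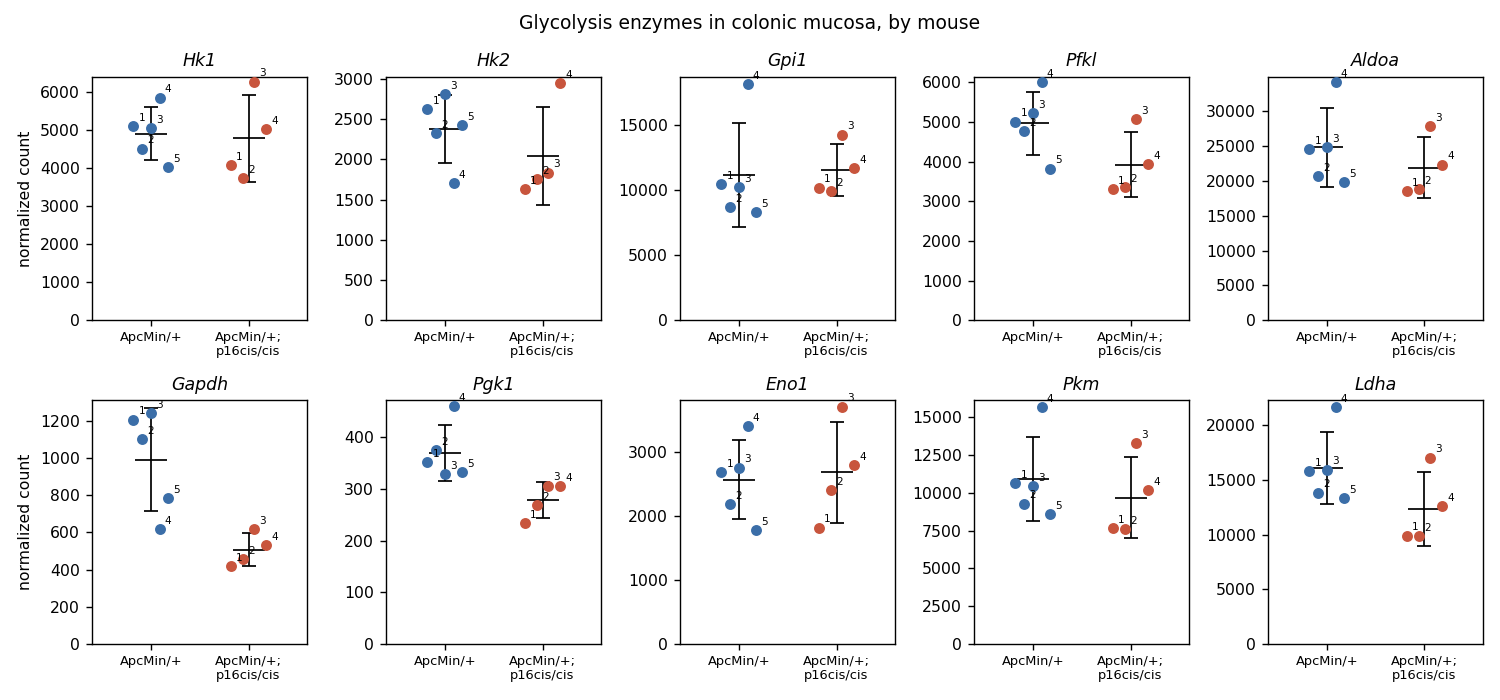
Normalized count (vertical axis, from 0) of each of the 10 glycolysis enzymes in each mouse. Blue points are the 5 ApcMin/+ mice and red points the 4 ApcMin/+; p16cis/cis mice, with mouse numbers beside them, and black bars give mean and SD. The points of the genotypes separate in Gapdh, where they touch, and in Pgk1, and overlap in the other 8.

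None of the first 3 members of the route was called. Hk1 (ENSMUSG00000037012.18, chromosome 10, 62268855 to 62379908 of GRCm38) encodes the hexokinase bound to mitochondria that most tissues share. Its normalized count was 5104, 4519, 5065, 5862 and 4028 in ApcMin/+ mice 1 to 5 and 4086, 3750.2, 6281 and 5022 in ApcMin/+; p16cis/cis mice 1 to 4. The highest and lowest of all 9 values were both in the p16cis/cis group, in mice 3 and 2 (log2 fold change -0.057, 95% interval -0.40 to 0.29). Hk2 (ENSMUSG00000000628.10, chromosome 6, 82725025 to 82774454) encodes the inducible hexokinase of muscle and tumors. Its count was 2627, 2328, 2809, 1707 and 2431 in ApcMin/+ mice 1 to 5 and 1634, 1759, 1835 and 2953 in ApcMin/+; p16cis/cis mice 1 to 4. Mouse 4 of either genotype went against its group, as the lowest ApcMin/+ mouse and as the highest mouse of all (log2 fold change -0.24, 95% interval -0.64 to 0.16). Gpi1 (ENSMUSG00000036427.5, chromosome 7, 34201330 to 34230336), the isomerase from glucose to fructose 6-phosphate, was 10429, 8661, 10207, 18124 and 8311 in ApcMin/+ mice 1 to 5 and 10168, 9901, 14238 and 11654 in ApcMin/+; p16cis/cis mice 1 to 4. ApcMin/+ mouse 4 stood far above the other 4 ApcMin/+ mice, and all 4 p16cis/cis mice were within or above the range of those 4 (log2 fold change 0.09, 95% interval -0.37 to 0.55).

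Phosphofructokinase and aldolase had lower means in ApcMin/+; p16cis/cis mice without being called. Pfkl (ENSMUSG00000020277.10, chromosome 10, 77986947 to 78010083) encodes the liver-type subunit of phosphofructokinase, the committing step. Its normalized count was 5007, 4762, 5214, 5993 and 3818 in ApcMin/+ mice 1 to 5 and 3306, 3363, 5066 and 3943 in ApcMin/+; p16cis/cis mice 1 to 4. Mice 1 and 2 of the p16cis/cis group lay below all 5 ApcMin/+ mice, whereas mouse 3 lay above 3 of them (log2 fold change -0.35, SE 0.15, limma adjusted p = 0.140). Without ApcMin/+; p16cis/cis mouse 3, Pfkl was called (log2 fold change -0.48, limma adjusted p = 0.0466), and it was also called once values were corrected for GC content and length of the transcript (limma adjusted p = 0.0369). In all, 4 of 25 other settings called Pfkl, and among the 5 females its log2 fold change was -0.11 (limma adjusted p = 0.775). Aldoa (ENSMUSG00000030695.16, chromosome 7, 126795234 to 126800751), the aldolase of muscle and most proliferating cells, was 24596, 20689, 24844, 34115 and 19823 in ApcMin/+ mice 1 to 5 and 18476, 18864, 27854 and 22314 in ApcMin/+; p16cis/cis mice 1 to 4. The ranges overlapped over most of their length, and the highest mouse of each group was again ApcMin/+ mouse 4 and p16cis/cis mouse 3 (log2 fold change -0.17, SE 0.19, limma adjusted p = 0.556).

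Gapdh moved most of the 10 members, and Pgk1 and Ldha followed, close to Pfkl of the earlier steps. Gapdh and Pgk1 share most of their sequence with other genes, as described below, so their counts are uncertain. Gapdh (ENSMUSG00000057666.18, chromosome 6, 125161715 to 125166467) encodes the dehydrogenase that makes NADH. The normalized count of Gapdh was 1206, 1103, 1243, 618 and 784 in the 5 ApcMin/+ mice (numbers 1 to 5) and 418, 458, 618 and 531 in the 4 ApcMin/+; p16cis/cis mice (numbers 1 to 4). The groups met at their ends, since ApcMin/+ mouse 4 and p16cis/cis mouse 3 had the same rounded value, while ApcMin/+ mice 1 to 3 were all above 1000. Gapdh fell by 0.93 on the log2 scale (95% interval -1.38 to -0.48; exact permutation test, two-sided, p = 0.0159). Leaving out each mouse in turn gave log2 fold changes from -1.09 to -0.84, all called and larger than 2-fold without ApcMin/+ mouse 4 or 5 or p16cis/cis mouse 3, and among the 5 females alone it was -0.87 (limma adjusted p = 0.0478). With each mouse's share of mitochondrial reads as a covariate, which differs between the genotypes without overlap, the log2 fold change of Gapdh was -0.86 and no gene of the 14410 was called (limma adjusted p = 0.848 for Gapdh), with 798 at an unadjusted p under 0.05. Pgk1 (ENSMUSG00000062070.12, chromosome X, 106187100 to 106203699) encodes the kinase that makes the first ATP. The normalized count of Pgk1 was 352, 376, 329, 460.1 and 333 in the 5 ApcMin/+ mice (numbers 1 to 5) and 234, 269.6, 307 and 305 in the 4 ApcMin/+; p16cis/cis mice (numbers 1 to 4). All 4 p16cis/cis mice lay below all 5 ApcMin/+ mice, by a gap smaller than either group's SD (log2 fold change -0.40, SE 0.14, limma adjusted p = 0.0687; exact permutation test, two-sided, p = 0.00794). It was called in 2 of 25 other settings, by DESeq2 on the recovered reads (adjusted p = 0.0474) and after the correction for GC content and length (limma adjusted p = 0.0262). Among the 5 females the log2 fold change of Pgk1 was -0.22 (limma adjusted p = 0.480). Gapdh and Pgk1 were the 2 of 10 members whose genotypes did not overlap, against 16.2% of all genes tested.

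None of the last 3 members was called, though Ldha had the lower mean in p16cis/cis mice by more than either group's SD. Eno1 (ENSMUSG00000063524.13, chromosome 4, 150236721 to 150248879) encodes the main enolase. Its normalized count was 2686, 2188, 2755, 3410.4 and 1785 in ApcMin/+ mice 1 to 5 and 1819.7, 2404, 3710.1 and 2792 in ApcMin/+; p16cis/cis mice 1 to 4. The highest mouse was a p16cis/cis mouse and the lowest an ApcMin/+ mouse (log2 fold change 0.051, 95% interval -0.41 to 0.51). Pkm (ENSMUSG00000032294.17, chromosome 9, 59656368 to 59679375) encodes the muscle-type pyruvate kinase, whose splice forms M1 and M2 a gene count does not tell apart. Its count was 10613, 9286, 10451, 15670.5 and 8569 in ApcMin/+ mice 1 to 5 and 7641, 7617, 13278 and 10197 in ApcMin/+; p16cis/cis mice 1 to 4, with ApcMin/+ mouse 4 at the top and p16cis/cis mice 1 and 2 at the bottom (log2 fold change -0.18, SE 0.20, limma adjusted p = 0.578). Ldha (ENSMUSG00000063229.15, chromosome 7, 46841475 to 46855627) encodes the lactate dehydrogenase subunit that favors lactate. The normalized count of Ldha was 15782, 13838, 15949.6, 21638 and 13363 in the 5 ApcMin/+ mice (numbers 1 to 5) and 9904, 9879, 17043 and 12618 in the 4 ApcMin/+; p16cis/cis mice (numbers 1 to 4). Mice 1, 2 and 4 of the p16cis/cis group lay below every ApcMin/+ mouse and mouse 3 lay above 4 of them (log2 fold change -0.40, SE 0.19, limma adjusted p = 0.166; 95% interval -0.81 to 0.017). Without that mouse the log2 fold change of Ldha was -0.57 and it was called (limma adjusted p = 0.0498). No other of the 25 settings called Ldha, and among the 5 females its log2 fold change was -0.18 (limma adjusted p = 0.672).

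**Figure D2:**
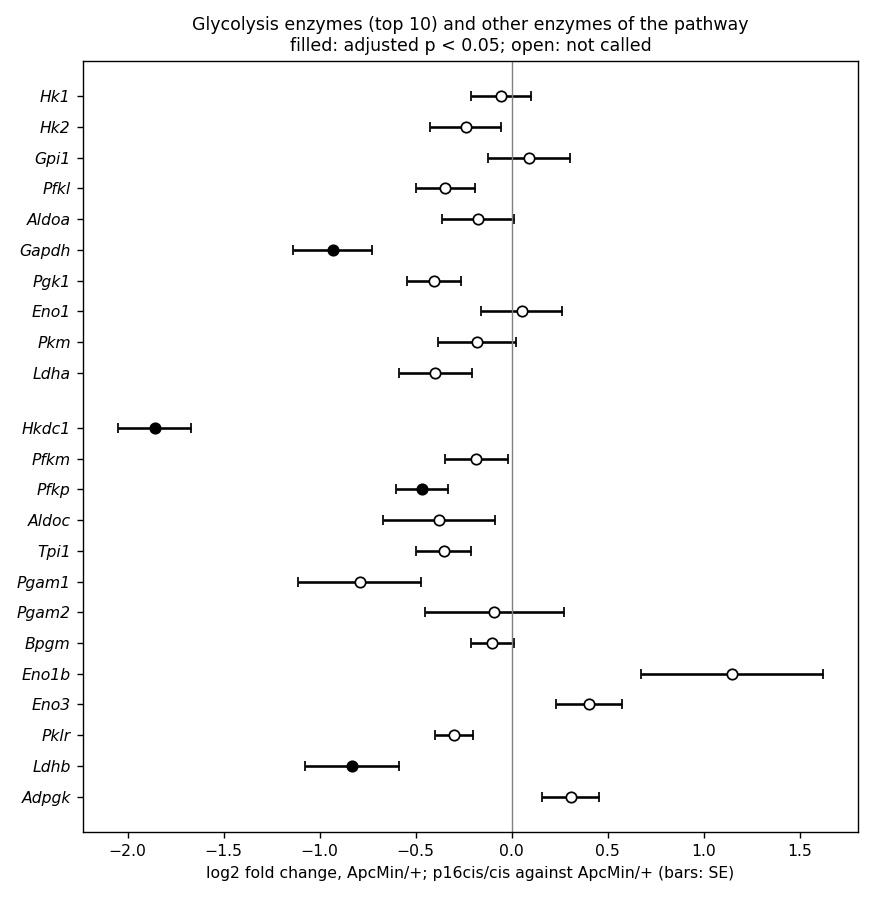
Log2 fold change (horizontal axis) of ApcMin/+; p16cis/cis against ApcMin/+ mice with its SE, for the 10 glycolysis enzymes (top) and other tested enzymes of the pathway. Filled points have an adjusted p under 0.05; these are Gapdh among the 10, and Hkdc1, Pfkp and Ldhb among the others, all lower.

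The levels of 8 of the 10 enzymes varied together from mouse to mouse, and Gapdh and Hk2 went with them less. Across the 9 mice, 40 of the 45 pairs of members had a Pearson correlation above 0, with a median of 0.71, a description over 9 libraries that share their normalization. The median was 0.23 for Gapdh with the other 9 and 0.062 for Hk2, whose correlation with Gpi1 was the lowest of all (-0.40). Values for Gapdh ran from -0.29 with Gpi1 to 0.65 with Hk2, with 0.60 for Pfkl and 0.54 for Pgk1. Within genotypes those with Pfkl and Pgk1 were 0.24 and -0.23, and the median of the 45 pairs was 0.80. Among the 28 pairs without Gapdh and Hk2 the median was 0.85 and the lowest value 0.41. Leaving out genes with low correlations raises the median by itself. ApcMin/+ mouse 4 held the highest value of its group in 8 of 10 members and p16cis/cis mouse 3 in 9 of 10. The mean deviation of the 10 members from their own means, on the log2 scale, was 0.17, 0.0095, 0.19, 0.36 and -0.16 in ApcMin/+ mice 1 to 5 and -0.41, -0.34, 0.19 and -0.014 in p16cis/cis mice 1 to 4. The genotypes overlapped in it. ApcMin/+ mouse 4 also had the highest sum of colonocyte markers of all 9 mice (462169) and the lowest sum of crypt base and cycling markers (5219, against 7063 to 8243 in the other 4 ApcMin/+ mice), and the part of this in its high values was not tested. The members took 0.354% to 0.537% of the reads in ApcMin/+ mice and 0.270% to 0.413% in p16cis/cis mice; of the reads outside mitochondrial genes the ranges were 0.413% to 0.606% and 0.380% to 0.533%.

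**Figure D3:**
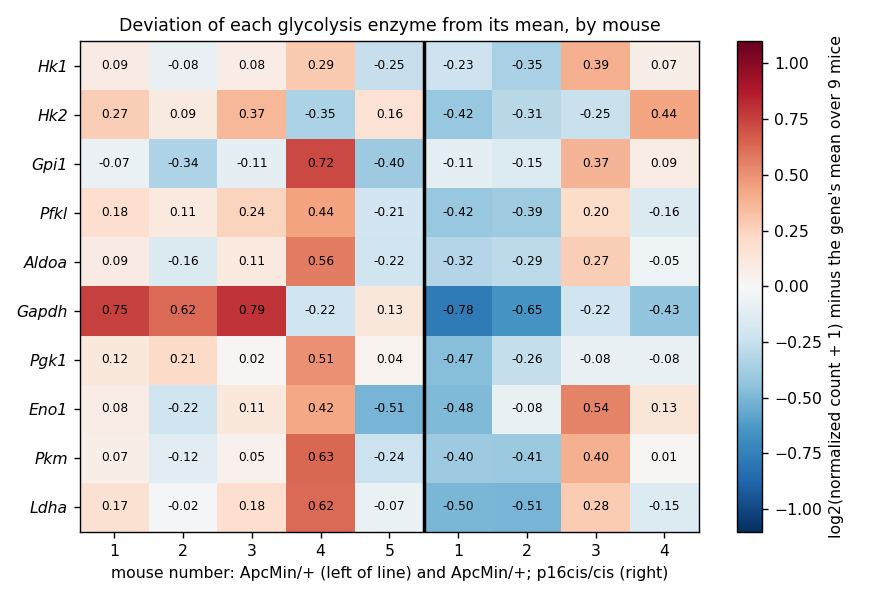
Deviation of log2(normalized count + 1) from the gene's mean over 9 mice (color and printed value) for each glycolysis enzyme (rows) and mouse (columns, ApcMin/+ left of the line, ApcMin/+; p16cis/cis right). ApcMin/+ mice 1 and 3 are above the mean in 9 of 10 rows each. ApcMin/+ mouse 4 and ApcMin/+; p16cis/cis mouse 3 are above it in 8 and 7, and mice 1 and 2 of the p16cis/cis group in 0. Gapdh and Hk2 are the rows below their mean in ApcMin/+ mouse 4.

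The 5 genes outside the 10 whose level was most like the mean deviation of the members, among tested genes with a mean normalized count of at least 100, were Pitpna (Pearson r = 0.965, Spearman rho = 0.967, over 9 mice), Tpi1 (r = 0.964, rho = 0.90), Slco2a1 (r = 0.954, rho = 0.883), Snx20 (r = 0.949, rho = 0.90) and Ptk2b (r = 0.948, rho = 0.90). Tpi1, the triose phosphate isomerase, is itself a step of glycolysis that was not among the 10. Its count was 8702, 7586, 8616, 9101 and 6881 in ApcMin/+ mice 1 to 5 and 5537, 5401, 8343 and 6565 in ApcMin/+; p16cis/cis mice 1 to 4, with ApcMin/+ mouse 4 again the highest (log2 fold change -0.35, SE 0.14, limma adjusted p = 0.108). Pitpna encodes a lipid transfer protein and Slco2a1 a prostaglandin transporter.

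The sequence of some members limits how their counts can be read, because the mouse genome holds many retrotransposed copies of glycolysis genes. The stretches of 60 coding bases that follow show this for Gapdh, Pgk1 and Ldha, with each gene above its closest annotated copy; they come from the transcripts of GENCODE M21 on GRCm38, read 5′ to 3′ on the coding strand, and capitals mark the bases of a copy that differ from the enzyme.
Gapdh (chr6:125163258-125163317, minus strand): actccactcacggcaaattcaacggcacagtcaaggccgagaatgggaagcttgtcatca
Gm7336 (chr7:51746839-51746898, plus strand): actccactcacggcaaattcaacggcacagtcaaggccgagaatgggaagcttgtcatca
Pgk1 (chrX:106200217-106200276, plus strand): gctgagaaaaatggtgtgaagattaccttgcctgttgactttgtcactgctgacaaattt
Gm5537 (chr3:58103372-58103431, minus strand): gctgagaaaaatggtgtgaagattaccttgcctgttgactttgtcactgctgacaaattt
Ldha (chr7:46850235-46850294, plus strand): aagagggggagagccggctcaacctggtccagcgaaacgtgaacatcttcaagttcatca
Gm5452 (chr13:83832642-83832701, plus strand): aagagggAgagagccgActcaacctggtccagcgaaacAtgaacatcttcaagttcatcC

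A read inside the first or second pair cannot be placed by its letters alone, while one across the third pair can. Over the whole coding region, Gm7336 was identical to Gapdh (100% of 999 aligned bases) and Gm5537 to Pgk1 (100% of 1251), whereas Gm5452 matched Ldha in 95.9%. Gapdh had 154 annotated copies at 90% identity or more over at least 300 bases, 25 of them at 99% or more. Ldha had 11, Pkm 6, Eno1 5, Aldoa 4, Pgk1 3 and Gpi1 1, and none was found for Hk1, Hk2 or Pfkl. Of all windows of 100 bases of the transcript, 78.0% in Gapdh, 67.0% in Pgk1 and 59.0% in Eno1 occurred letter for letter in a transcript of another gene, against at most 9.82% in the other 7 members (Pkm).

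Levels were compared between enzymes per length, as the mean normalized count per kb of 1 representative transcript over the 9 mice. Aldoa was highest at 15558 per kb, followed by Ldha at 8180.1, Pkm at 4264 and Gpi1 at 3918. Eno1 (1291), Hk1 (1261) and Pfkl (1206) came next, then Gapdh (546), Hk2 (405) and Pgk1 (180.4). In this order Pkm and Gpi1 did not differ beyond their spread, with 4489 ± 1146 (SD, n = 5) and 3982 ± 1104 (SD, n = 4) per kb for Pkm in ApcMin/+ and p16cis/cis mice and 3865 ± 1390.2 (SD, n = 5) and 3984 ± 689 (SD, n = 4) for Gpi1. Eno1, Hk1 and Pfkl did not either, nor did Gapdh and Hk2 in the p16cis/cis mice, with 356 ± 61.9 and 371 ± 111 per kb (SD, n = 4). Gapdh, Pgk1 and Eno1, the 3 members with the most shared sequence, all stood below Gpi1. So did Hk1, Pfkl and Hk2, for which no shared window of 100 bases and no copy was found. Divided by the windows of 100 bases that are not shared, the means were 2674 for Gapdh, 579 for Pgk1 and 3312 for Eno1, against 16649 for Aldoa per 1000 such windows. How reads that match several genes were assigned was not tested, so the levels of Gapdh, Pgk1 and Eno1 are uncertain.

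**Figure D4:**
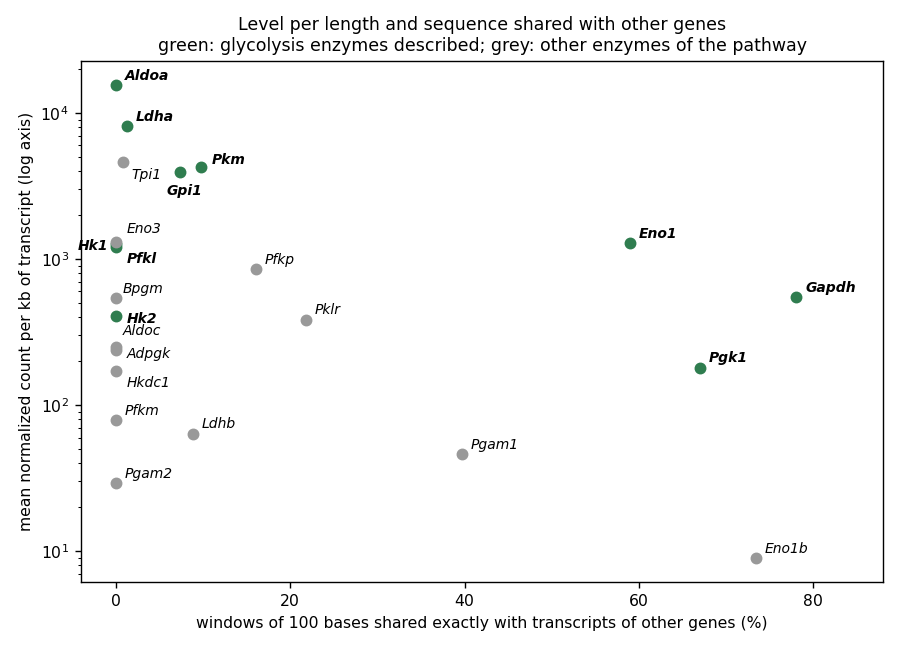
Share of 100-base windows of each transcript found exactly in transcripts of other genes (horizontal axis, percent) and mean normalized count per kb of transcript over 9 mice (vertical axis, logarithmic). Green points are the 10 glycolysis enzymes and grey points other tested enzymes of the pathway. Gapdh, Pgk1 and Eno1 lie at 78.0%, 67.0% and 59.0%, the other 7 green points at the left.

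The reads assigned to copies were few for every member except Gapdh. The 154 Gapdh copies summed to 476 to 863 normalized counts in ApcMin/+ mice and 535 to 679 in p16cis/cis mice, so the sums overlapped. Their means were 701 ± 161 (SD, n = 5) and 577 ± 68.6 (SD, n = 4), lower in p16cis/cis mice but not resolved (exact permutation test, two-sided, p = 0.222). These means were 70.7% and 114% of the count of Gapdh itself. With the reads of the copies added to the gene, the log2 fold change of Gapdh moved from -0.93 to -0.62 (limma adjusted p = 0.0342). The copy Gm8330 on chromosome 10 (94.2% identical) was 102, 52.3, 90.7, 8.90 and 11.4 in ApcMin/+ mice 1 to 5 and 7.58, 12.8, 13.5 and 7.83 in p16cis/cis mice 1 to 4. It was high in the same 3 ApcMin/+ mice as Gapdh. The copy with the most reads, Gm5069 on chromosome 1, was 55.8, 47.5, 31.2, 43.2 and 49.9 and 65.7, 68.6, 84.1 and 89.3, with every p16cis/cis mouse above every ApcMin/+ mouse; both copies were chosen after their values were seen. The copies of Pgk1 summed to at most 2.93 in any mouse, those of Eno1 to at most 37.6 and those of Ldha to at most 26.1. The share of all reads on pseudogenes was itself higher in p16cis/cis mice, 0.202% to 0.224% against 0.163% to 0.175%, and its part in the fall of Gapdh was not tested.

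Among 22 other enzymes of glycolysis, paralogs and steps outside the 10, 15 passed the filter on low values. Of these, 3 were called lower and 0 higher (20%, beside 16.9% of all genes), and the median log2 fold change was -0.19. Hkdc1 encodes a further hexokinase of gut epithelium. Its normalized count was 728, 781, 909, 1288 and 749 in ApcMin/+ mice 1 to 5 and 174, 263, 279 and 254 in ApcMin/+; p16cis/cis mice 1 to 4. Every p16cis/cis mouse was far below every ApcMin/+ mouse (log2 fold change -1.86, SE 0.19, limma adjusted p = 0.000970), and Hkdc1 was called without any 1 mouse, with log2 fold changes of -1.94 to -1.71. Pfkp, the platelet-type phosphofructokinase, was 4527, 3656, 3758, 4409.6 and 3704 in ApcMin/+ mice 1 to 5 and 2245, 2898, 3578 and 2984 in ApcMin/+; p16cis/cis mice 1 to 4, again without overlap (log2 fold change -0.47, SE 0.13, limma adjusted p = 0.0335). Ldhb, the lactate dehydrogenase subunit that favors pyruvate, was 103, 104, 94.6, 127 and 84.0 in ApcMin/+ mice 1 to 5 and 36.6, 65.4, 82.6 and 51.7 in ApcMin/+; p16cis/cis mice 1 to 4, its groups separated by less than 2 counts (log2 fold change -0.83, SE 0.24, limma adjusted p = 0.0373). The call of Pfkp was lost without ApcMin/+ mouse 1, 2 or 3 or p16cis/cis mouse 1, 2 or 4 (limma adjusted p = 0.0544 to 0.0786) and that of Ldhb without ApcMin/+ mouse 1, 2 or 3 or p16cis/cis mouse 1, 2 or 4 (limma adjusted p = 0.0632 to 0.0946). After the correction for GC content and length Pfkp was not called (limma adjusted p = 0.141), and with sex as a covariate Ldhb was not (limma adjusted p = 0.0552). Among the 5 females neither was called (limma adjusted p = 0.165 for Pfkp and 0.362 for Ldhb), whereas the log2 fold change of Hkdc1 was -1.47 (limma adjusted p = 0.00331).

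The other 12 enzymes were not called. Pklr, the pyruvate kinase of liver and red blood cells, was 1216, 1238, 1211, 1326 and 1112 in ApcMin/+ mice 1 to 5 and 1042, 914, 1094 and 918 in ApcMin/+; p16cis/cis mice 1 to 4, and its genotypes did not overlap (log2 fold change -0.30, SE 0.097, limma adjusted p = 0.0520). Pgam1, the phosphoglycerate mutase, shared 39.7% of its windows with other genes and ran from 58.5 to 146 in ApcMin/+ mice and from 39.1 to 70.6 in p16cis/cis mice, with ApcMin/+ mice 4 and 5 low as for Gapdh (log2 fold change -0.79, SE 0.32, limma adjusted p = 0.106). Eno3, the muscle-type enolase, and Adpgk, an ADP-dependent glucokinase, had higher means in p16cis/cis mice (log2 fold changes 0.40 and 0.31, limma adjusted p = 0.127 and 0.171). The log2 fold changes of Pfkm, Aldoc, Bpgm and Pgam2 were -0.19, -0.38, -0.10 and -0.091. Eno1b, a retrogene that shares 73.4% of its windows, was at 4.88 to 14.0 and 9.40 to 36.1 normalized counts (log2 fold change 1.15, limma adjusted p = 0.114).

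Around the route, 2 kinase genes that control the fate of pyruvate fell. Of 9 tested regulators of glycolytic flux, 2 were called lower and 0 higher (22.2%, beside 16.9% of all genes; median log2 fold change -0.20). Both were pyruvate dehydrogenase kinases, which inhibit the mitochondrial enzyme pyruvate dehydrogenase. Pdk4, the kinase induced by fasting and fatty acids, was 183, 457, 1215, 1488 and 270.1 in ApcMin/+ mice 1 to 5 and 96.0, 75.0, 67.6 and 130.0 in ApcMin/+; p16cis/cis mice 1 to 4. All p16cis/cis mice lay below all ApcMin/+ mice, which themselves spread widely (log2 fold change -2.55, SE 0.54, limma adjusted p = 0.0105). Pdk1, a known HIF target, was 1431, 1680.1, 1732, 2134 and 1523 in ApcMin/+ mice 1 to 5 and 1166, 844, 1291 and 808 in ApcMin/+; p16cis/cis mice 1 to 4, also without overlap (log2 fold change -0.74, SE 0.16, limma adjusted p = 0.0115). Of 12 tested glucose and lactate transporters, 1 (8.33%) was called lower and 0 higher (median -0.44). This was Slc5a1, the sodium-coupled glucose transporter, at 4077, 4314, 3820.3, 4392 and 3430.2 in ApcMin/+ mice 1 to 5 and 3098, 2495, 3389 and 2680.3 in ApcMin/+; p16cis/cis mice 1 to 4 (log2 fold change -0.46, SE 0.12, limma adjusted p = 0.0211). Its call was lost without ApcMin/+ mouse 2 or p16cis/cis mouse 2 or 4 (limma adjusted p = 0.0562 to 0.0700), and with sex as a covariate (limma adjusted p = 0.0566). Among the 5 females neither kinase nor any transporter was called, with log2 fold changes of -1.34 for Pdk4 (limma adjusted p = 0.0512) and -0.62 for Pdk1 (limma adjusted p = 0.104). Slc2a1, the common glucose transporter, was not called (log2 fold change -0.26, limma adjusted p = 0.335).

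In the neighboring routes, the share called was 11.1% for gluconeogenesis and fructose use and 0% for the pentose phosphate pathway. Among the transcription factors it was 11.8%, beside 16.9% of all genes. Lists of 8 to 17 tested genes are too small to read a difference from these shares. Of 9 tested genes of gluconeogenesis and fructose use, 0 were called lower and 1 higher (median log2 fold change -0.30). G6pc3, the widely expressed glucose 6-phosphatase, rose from 1747 ± 304 (SD, n = 5) to 2483 ± 56.7 (SD, n = 4) (log2 fold change 0.52, SE 0.12, limma adjusted p = 0.0161). Of 8 tested genes of the pentose phosphate pathway, which branches off at glucose 6-phosphate, 0 were called lower and 0 higher by limma (median -0.11), with 2 lower and 1 higher at an unadjusted p under 0.05. On the recovered reads edgeR called 0 of these genes and DESeq2 0. Other settings of limma did call some. Scaling to the nuclear total called 1 higher, as did the females alone. Leaving out ApcMin/+ mouse 4 called 1 lower and 1 higher. Leaving out p16cis/cis mouse 3 called 1 lower, as did the correction for GC content and length. Of 17 transcription factors tied to glycolysis, 0 were called lower and 2 higher (median -0.18). Myc, which drives growth and glycolytic genes, rose from 1356 ± 162 (SD, n = 5) to 1874 ± 251 (SD, n = 4) (log2 fold change 0.47, SE 0.12, limma adjusted p = 0.0259), and Mlxipl, the carbohydrate-response factor ChREBP, from 803 ± 97.8 (SD, n = 5) to 1370.3 ± 365 (SD, n = 4) (log2 fold change 0.73, SE 0.18, limma adjusted p = 0.0209). The call of Myc was lost without ApcMin/+ mouse 2 or p16cis/cis mouse 3 or 4 (limma adjusted p = 0.0544 to 0.0835) and that of Mlxipl without ApcMin/+ mouse 3 or p16cis/cis mouse 1, 2 or 4 (limma adjusted p = 0.0511 to 0.0695). After the correction for GC content and length, G6pc3, Myc and Mlxipl were not called (limma adjusted p = 0.0527, 0.0860 and 0.0614). With sex as a covariate Myc was not called (limma adjusted p = 0.0671), nor were Myc and Mlxipl among the females (limma adjusted p = 0.180 and 0.230). Hif1a itself was not called (log2 fold change -0.31, 95% interval -0.66 to 0.05).

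Known HIF targets outside glycolysis were lower in a larger share than the enzymes. Of 20 tested, 8 were called lower and 1 higher, a share of 45.0% beside 16.9% of all genes, and their median log2 fold change was -0.50 beside -0.21 for the 10 enzymes; the difference between these lists was not tested. Higd1a, a mitochondrial protein induced by hypoxia, was 1501, 1728, 1718, 1664 and 1342 in ApcMin/+ mice 1 to 5 and 591, 908, 882 and 766 in ApcMin/+; p16cis/cis mice 1 to 4 (log2 fold change -1.03, SE 0.14, limma adjusted p = 0.00195). Tfrc, the transferrin receptor, was 10198, 12627, 13341, 12472 and 10910.4 in ApcMin/+ mice 1 to 5 and 2671, 3603, 8126 and 4883 in ApcMin/+; p16cis/cis mice 1 to 4 (log2 fold change -1.42, SE 0.25, limma adjusted p = 0.00571). In both genes no p16cis/cis mouse reached the lowest ApcMin/+ mouse. Ankrd37 fell from 338 ± 83.5 (SD, n = 5) to 147 ± 62.1 (SD, n = 4) and Ddit4, an inhibitor of mTORC1 signaling, from 980.4 ± 246 (SD, n = 5) to 539 ± 136 (SD, n = 4), with log2 fold changes of -1.26 (limma adjusted p = 0.0139) and -0.86 (limma adjusted p = 0.0158). Mif, a cytokine, rose from 233 ± 72.8 (SD, n = 5) to 389.9 ± 86.6 (SD, n = 4) (log2 fold change 0.77, SE 0.24, limma adjusted p = 0.0430). Vegfa and Car9, classic targets of hypoxia, were not called (log2 fold changes -0.046 and -0.32). The number of lower calls ran from 4 without p16cis/cis mouse 4 to 11 without p16cis/cis mouse 3, it was 5 without ApcMin/+ mouse 1, ApcMin/+ mouse 3 or p16cis/cis mouse 2, and it was 2 among the 5 females. Of the 5 oxygen sensors, 2 were called lower and 0 higher (40%, beside 16.9% of all genes). These were Egln1, the main prolyl hydroxylase that marks HIF for breakdown (1491 ± 162 (SD, n = 5) to 1067 ± 51.6 (SD, n = 4); log2 fold change -0.48, SE 0.10, limma adjusted p = 0.0113), and Hif1an, the asparaginyl hydroxylase of HIF (1130.5 ± 58.6 (SD, n = 5) to 906 ± 55.8 (SD, n = 4); log2 fold change -0.32, SE 0.09, limma adjusted p = 0.0313). The call of Mif was lost without ApcMin/+ mouse 1, 2, 3 or 5 or p16cis/cis mouse 2, 3 or 4 (limma adjusted p = 0.0625 to 0.122), that of Hif1an without ApcMin/+ mouse 1, 2, 3 or 5 or p16cis/cis mouse 2, 3 or 4 (limma adjusted p = 0.0570 to 0.0924) and that of Ddit4 without p16cis/cis mouse 4 (limma adjusted p = 0.0501). Those of Higd1a, Tfrc, Ankrd37 and Egln1 held without each mouse in turn. Among the 5 females Higd1a and Ankrd37 were called, and Tfrc, Ddit4, Egln1 and Hif1an were not (limma adjusted p = 0.0690, 0.197, 0.142 and 0.107).

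**Figure D5:**
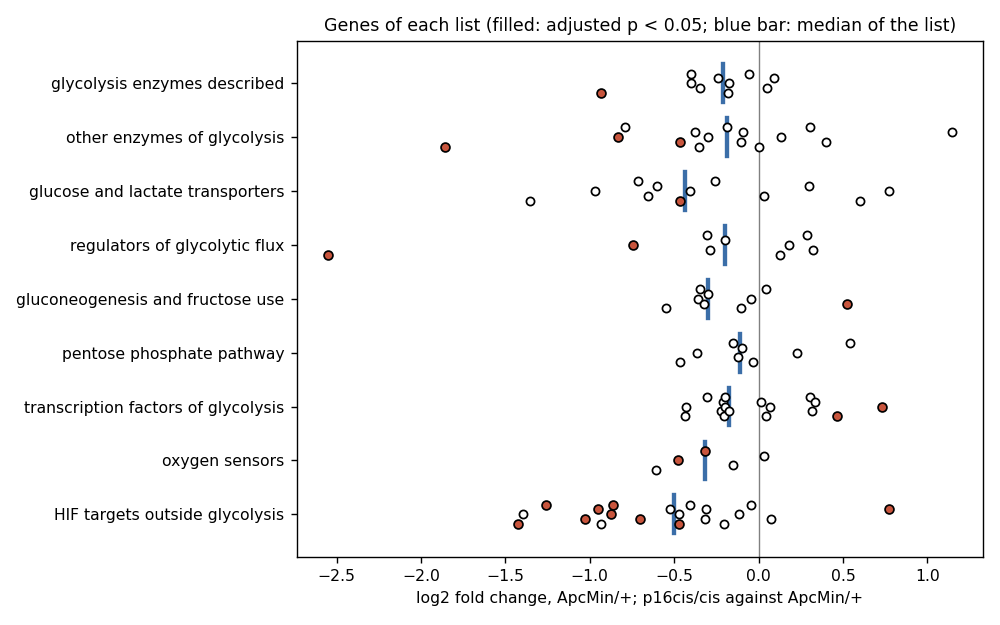
Log2 fold change (horizontal axis) of ApcMin/+; p16cis/cis against ApcMin/+ mice for every tested gene of each list (rows). Filled points have an adjusted p under 0.05, open points do not, and the blue bar is the median of the list. The 10 glycolysis enzymes hold 1 filled point and the 20 HIF targets outside glycolysis 9.

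The promoters of the members were searched for the letters of the HIF core motif, ACGTG or GCGTG on either strand, in the 250 bases before each RefSeq start (GRCm38.p6); the palindrome of a shared E-box, CACGTG, counts on both strands. All 10 members matched the table, with 17 starts. The motif stood before 13 of these (76.5%), against 54.7% of the 12586 promoters of genes tested and 38.6% of all 32851 promoters of the same length. By gene, it stood before at least 1 start of 9 members, Gpi1 being the exception, and of 5983 of the 9834 tested genes matched. Windows of neighboring starts overlap, so the same sites are counted at more than 1 start in Aldoa and Eno1. Among the other enzymes of glycolysis it stood before 46.2% of 26. Among HIF targets outside glycolysis it stood before 76.9% of 26. The stretches of 100 bases that hold the most motifs are printed for Ldha, which had the most, and for Gapdh and Pgk1, the members without overlap between genotypes. They are read 5′ to 3′ on the strand of the gene, and capitals mark the motifs.
Ldha (chr7:46845704-46845803, plus strand): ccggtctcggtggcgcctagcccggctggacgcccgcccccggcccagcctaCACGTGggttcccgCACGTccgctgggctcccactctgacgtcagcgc
Gapdh (chr6:125165774-125165873, minus strand): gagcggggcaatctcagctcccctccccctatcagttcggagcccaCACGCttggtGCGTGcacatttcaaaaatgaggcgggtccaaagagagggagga
Pgk1 (chrX:106186950-106187049, plus strand): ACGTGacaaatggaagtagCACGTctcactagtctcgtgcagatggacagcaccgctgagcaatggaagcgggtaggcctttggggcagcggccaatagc

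In the stretch of Ldha the motif occurs on both strands of an E-box and once more after it. In those of Gapdh and Pgk1 it occurs once on each strand. The searched window of Hkdc1, the pathway gene with the largest fall among the enzymes tested, holds none. A match is a description of the letters, and no binding was measured here.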

How the data were processed

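Colonic mucosa of 9 mice was profiled by RNA-seq on a BGISEQ-500. Per the methods, the authors aligned reads with BOWTIE2, quantified genes with RSEM and compared genotypes with DESeq2; versions, the build and the annotation were not given in the sources used here. The deposited table holds 1 normalized count (a signal per gene, the count divided by a size factor) for each of 54146 genes in each mouse, with no columns of comparisons used. Dividing by the value of 1 read gave whole reads for 100% of the positive values within 0.01 reads. Gene coordinates are those of GENCODE M21 (GRCm38), of which 54079 gene IDs matched the table without their version.

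Genotypes were compared with limma 3.58.1 (trended variances, R 4.3.3) on log2(normalized count + 1), over 14410 genes with at least 10 in at least 4 mice, without covariates, adjusting by Benjamini-Hochberg. A fold change on this scale understates the change of low genes. edgeR 4.0.16 and DESeq2 1.42.0 on recovered reads, other scalings, filters, pseudocounts, sex, the mitochondrial share and leaving out each mouse were alternatives. Adding the reads of copies and correcting for GC content and transcript length were chosen after seeing the data. For single genes, 126 arrangements of the mice gave exact permutation p-values. Copies were found with blastn 2.17.0 among GENCODE transcripts. The members and all gene lists were chosen with earlier results of these data known. The genes named were all members, the tested enzymes of glycolysis (2 of these are counted with their list but not reported here by name), in each other list up to 4 called genes of smallest adjusted p per direction, and the 5 most like the members; Slc2a1, Hif1a, Vegfa, Car9, Gm8330 and Gm5069 were added by choice. Each mouse was 1 library, so p-values measure the spread between mice. The limma step was tested on simulated data with larger changes than in any of the 10 members and with no shift in mitochondrial reads. That test says little about the calls reported here.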

Additional observations from a re-analysis of the deposited data

Results flagged for a closer look

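In 4 of 50 groups of mice checked, a single mouse stood apart from its group by Dixon's criterion, where chance alone gives about 2.5. Hk2 was 2953 normalized counts in ApcMin/+; p16cis/cis mouse 4, against 1634 to 1835 in the other 3 mice of that genotype. Gpi1 was 18124 in ApcMin/+ mouse 4, against 8311 to 10429 in the other 4. Pkm was 15670.5 in the same ApcMin/+ mouse 4, against 8569 to 10613. Pfkm, the muscle-type phosphofructokinase, was 201 in ApcMin/+; p16cis/cis mouse 2, against 212 to 213 in the other 3. Without ApcMin/+ mouse 4 the log2 fold change of Gpi1 was 0.28 and that of Pkm -0.041; without ApcMin/+; p16cis/cis mouse 4 that of Hk2 was -0.43. None of these changes was called (limma, adjusted p = 0.158, 0.883 and 0.0998).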

How the results depend on the processing

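The number of the 10 glycolysis enzymes called was 1 (Gapdh) with edgeR under both scalings, with limma under TMM scaling or scaled to the nuclear total, with either other filter on low values, with pseudocounts of 0.1 and 10, with sex as a covariate, among females and with the reads of copies added. It was 2 with DESeq2 (Gapdh, Pgk1) and 0 with the mitochondrial share as a covariate. Of the other enzymes of the pathway, 5 were called with DESeq2, 1 without a filter on low values, 1 among females and 0 with the mitochondrial share. Over all genes, 2434 were called in the reported comparison, 1437 with sex as a covariate, 898 among females, 0 with the mitochondrial share and 1449 with the correction for GC content and transcript length together with the block. Leaving out each mouse in turn gave 1 to 3 members called, 0 to 1 called with a fold change over 2, 1 to 5 of the other enzymes and 1183 to 3488 genes, the fewest without p16cis/cis mouse 4 and the most without ApcMin/+ mouse 4. The cause of these differences was not tested. The direction of a fold change turned in members near 0. Among females the log2 fold changes of Hk1, Aldoa and Pkm were 0.11, 0.041 and 0.083, and with the mitochondrial share those of Hk1 and Pkm were 0.21 and 0.033. Leaving out single mice gave -0.20 to 0.051 for Hk1, -0.018 to 0.28 for Gpi1 and -0.12 to 0.22 for Eno1. The correction for GC content and transcript length called 3 members (Gapdh, Pfkl, Pgk1) and gave Eno1 -0.15. Under the other scalings the median log2 fold change of all genes was between -0.00740 and 0.00508.

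Same-numbered mice of the genotypes had correlations of their deviations of -0.175, 0.0660, 0.0465 and 0.142, and 2 of the 4 p16cis/cis mice correlated best with their own number, so the numbers were not taken as pairs. With the replicate block, in which ApcMin/+ mouse 5 has no partner and does not bear on the estimate, 2 members were called (Pfkl, limma adjusted p = 0.0490, and Gapdh, over 2-fold, so that 1 member passed a fold change of 2), 1 of the other enzymes (Hkdc1) and 2074 genes, and Gpi1 and Eno1 had log2 fold changes of -0.000147 and -0.071. With the block and the correction for GC content and transcript length, 2 members were called (Pfkl, Gapdh), 1 of them over 2-fold, and Gpi1 and Eno1 were at -0.023 and -0.23. With 4 or 5 mice a group, the 95% intervals of the members not called were as wide as -0.37 to 0.55 (Gpi1). These intervals are not adjusted for the number of genes tested, and changes within them are not excluded. Lengths and shared sequence rest on 1 transcript annotation.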

Other observations

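Goblet markers (6 genes, among them Muc2) summed to 238245 to 387955 in ApcMin/+ mice and 248562 to 490533 in ApcMin/+; p16cis/cis mice, with 0 of 6 called by limma. Red cell markers (5 genes) summed to 1187 to 7269 and 352 to 4534, with 1 of 5 called, lower (20%, beside 16.9% of all genes).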
